A study of Mus musculus with 80 samples.

Results

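The splice donor of *Ptbp1* exon 1 was targeted in mouse Hepa1-6 cells, a hepatoma line, with one sgRNA and an adenine base editor built on *Sp*G. The set holds 9 of the 80 samples of the series, chosen by their descriptions. In 3 samples the editor was *Sp*G-ABE8e and in 3 it was *Sp*G-ABEmax. In the other 3, the controls, the same sgRNA was given without an editor. Plasmids were delivered with a lipid reagent, and no step that enriches for transfected cells is described in the sources used here, so each percentage is over the alleles of transfected and untransfected cells together. A further 6 samples of the same site with *Sp*Cas-ABEmax or *Sp*Cas-ABE8e are used at the end for comparison. Each sample is 1 amplicon library listed as a table of alleles over a window of 40 bases, that is, the 20 bases of the protospacer and 10 bases on each side. The 9 tables held 1248 to 2003 reads (14541 in all), and each listed 19 to 37 distinct window sequences.

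PTBP1 is an RNA-binding protein that binds polypyrimidine tracts and represses the inclusion of many alternative exons, neuronal ones among them. An adenine base editor joins a nicking Cas9 with a deaminase that acts on DNA. The enzyme converts adenine in the displaced strand to inosine, which is copied as guanine, so that an A-T pair becomes a G-C pair. ABEmax and ABE8e differ in the deaminase: ABE8e carries an evolved form of it that works faster, and is known for more editing of neighbouring adenines. *Sp*G is a variant of *Sp*Cas9 that accepts an NGN PAM, and a PAM with NGG, as here, is open to both proteins. A splice donor begins with GT in the intron, and editing the strand opposite to the transcript changes that T to C. Among natural mammalian donors a small minority begin with GC.

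The protospacer lies on the minus strand of chromosome 10 at chr10:79690542-79690561 of GRCm39, across the border of exon 1 and intron 1 of *Ptbp1* (ENSMUSG00000006498.18, a plus-strand gene). The window matched the genome at 1 place. Exon 1 of the canonical transcript (ENSMUST00000172282.8) ends at 79690555, and 24 of 30 annotated transcripts have an exon that ends there. The start codon lies in the same protospacer, at 79690548 to 79690550, which leaves 8 coding bases in exon 1, and 20 of the 21 transcripts with an annotated start codon begin there. The sequences below show the sgRNA strand with its 5 adenines in capitals, followed by the 3 bases of the PAM, and then the transcript strand before and after the target edit, with the start codon and the donor dinucleotide in capitals.
sgRNA strand with PAM: ActtAcccgtccAtggcAcAcgg
transcript strand, unedited: tgtgccATGgacggGTaagt
transcript strand, target edited: tgtgccATGgacggGCaagt

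Positions are counted from 1 at the 5′ end of the protospacer. The target is the adenine at position 5, opposite base 2 of the intron (79690557). The adenine at position 1 is opposite base 6 of the intron (79690561). The adenine at position 13 pairs with the T of the start codon (79690549), so that A13G turns ATG into ACG, the protein change M1T. Positions 18 and 20 lie in the 5′ untranslated part of exon 1, 4 and 6 bases before the start codon (79690544 and 79690542). An edit at position 5 is called A5G, and the others are named in the same way.

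Both editors edited the target. ABE8e and ABEmax without a prefix stand for the *Sp*G editors up to the comparison with *Sp*Cas. A5G was carried by 366 of 1992 reads (18.4%), 374 of 1555 reads (24.1%) and 407 of 1248 reads (32.6%) in the 3 ABE8e samples. With ABEmax it was carried by 296 of 1579 reads (18.7%), 130 of 1621 reads (8.02%) and 201 of 1286 reads (15.6%). All 6 were far above the controls, where 1 of 1741, 1 of 2003 and 2 of 1516 reads had it. The lowest ABE8e sample and the highest ABEmax sample, both replicate 1, lay at nearly the same rate, and the groups overlapped there only. The mean was 25.01 ± 7.17% with ABE8e and 14.1 ± 5.52% with ABEmax (SD, n = 3 each), a difference of 10.9 percentage points (two-sided exact permutation p = 0.20; Benjamini-Hochberg adjusted p = 0.246 over 16 comparisons). With 3 samples against 3 that test cannot give a p below 0.1, so none of the comparisons between these groups can pass 0.05. Both editors against the controls gave p = 0.1 in the exact permutation test (adjusted p = 0.16).

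The spread within a group was wider than the counting error of its samples. The 95% Wilson intervals of the 3 ABE8e samples were 16.7 to 20.1%, 22.0 to 26.2% and 30.1 to 35.3%, and those of ABEmax were 16.9 to 20.7%, 6.79 to 9.44% and 13.7 to 17.7%. Within ABE8e no interval met another. These intervals cover counting error only, since reads of a PCR amplicon are not independent molecules. Without replicate 1 of each group the difference between the editors was 16.5 percentage points, and without replicate 3 it was 7.83.

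**Figure D1:**
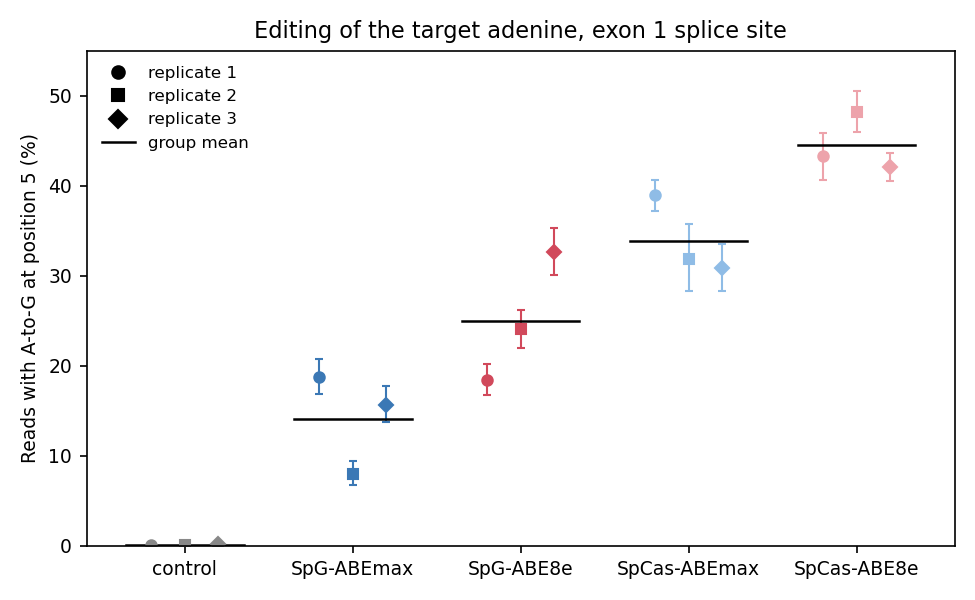
Percent of reads with A-to-G at position 5 in each sample of the exon 1 splice donor (y axis), by group (x axis); symbols mark the replicate, bars the 95% Wilson interval of the reads and black lines the group mean. The SpG-ABE8e samples lie between 18.4% and 32.6% and overlap the SpG-ABEmax samples (8.02% to 18.7%) at replicate 1 only, while the controls lie near 0.

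The editors also differed at other adenines of the protospacer. With ABE8e, A13G, the change of the start codon, was read in 29 of 1992, 21 of 1555 and 23 of 1248 reads, or 1.46%, 1.35% and 1.84%. With ABEmax it was read in 3 of 1579, 0 of 1621 and 1 of 1286 reads, and a count of 0 allows up to 0.185% in that sample. All 3 ABE8e samples were above all 3 ABEmax samples, and the means were 1.55 ± 0.259% and 0.0893 ± 0.0955% (SD, n = 3; exact permutation p = 0.1, the smallest possible; adjusted p = 0.16). The difference of 1.46 percentage points lay between 1.31 and 1.56 when 1 replicate number was left out. In the controls A13G was read in 1, 0 and 0 reads, which overlapped the ABEmax samples. ABEmax replicate 1 and ABE8e replicate 1, which had nearly the same target editing, held 3 and 29 reads with A13G. Whether A13G follows target editing over samples was not tested.

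A18G, in the 5′ untranslated part and beyond the predicted nick (between positions 17 and 18), was the next most frequent. It was read in 8, 7 and 9 reads with ABE8e, that is 0.402%, 0.450% and 0.721%. With ABEmax it was read in 0, 0 and 2 reads, and in the controls in 0, 1 and 0. Again the editors did not overlap, and the means were 0.524 ± 0.172% and 0.0518 ± 0.0898% (SD, n = 3; exact permutation p = 0.1, adjusted p = 0.16). A1G, in the intron, was read in 2, 3 and 6 reads with ABE8e (0.1004%, 0.193% and 0.481%) and in 1, 2 and 1 reads with ABEmax. These ranges overlapped, and the means of 0.258 ± 0.198% and 0.0882 ± 0.0313% gave p = 0.20 (exact permutation test, n = 3 each; adjusted p = 0.246). A difference at position 1 was thus not detected with 3 samples against 3. A20G was read in 2, 1 and 0 reads with ABE8e, in none of the 4486 reads with ABEmax and in 0, 0 and 1 reads of the controls, and the groups overlapped (exact permutation p = 0.40, adjusted p = 0.457).

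Counting a read once if any adenine other than the target was edited, the rate was 2.01%, 2.06% and 2.80% with ABE8e, 0.253%, 0.123% and 0.311% with ABEmax, and 0.0574%, 0.0999% and 0.0660% in the controls. The 3 groups did not overlap. The difference from the controls was 2.22 percentage points for ABE8e and 0.155 for ABEmax (exact permutation p = 0.1 each, adjusted p = 0.16), and the latter rests on 10 reads against 4.

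**Figure D2:**
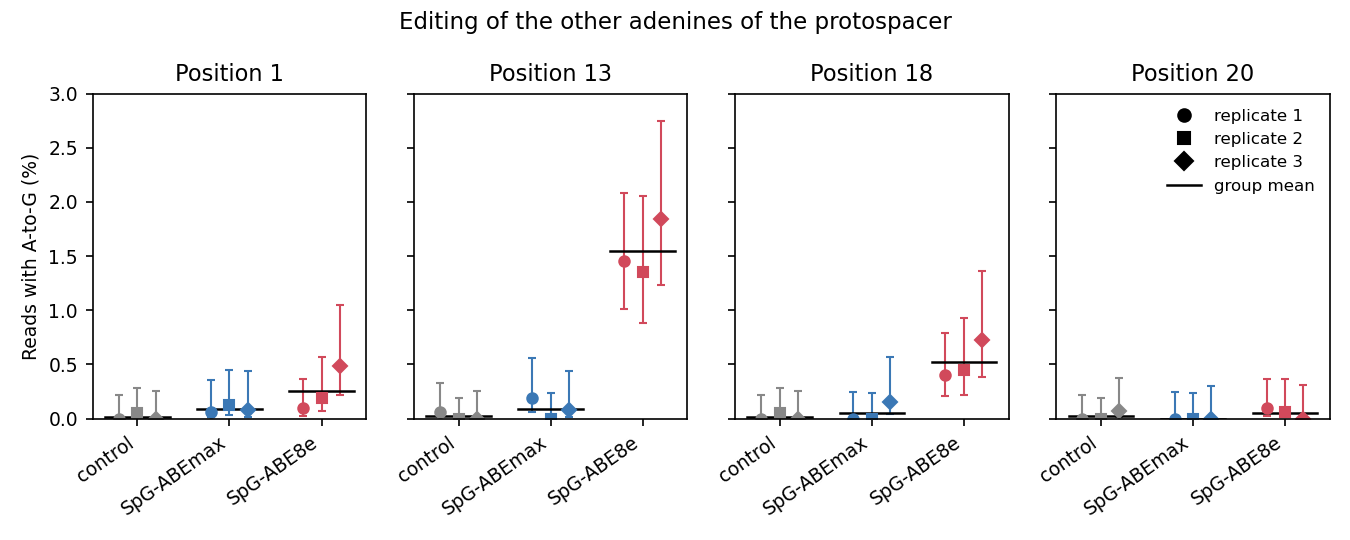
Percent of reads with A-to-G at each of the 4 other adenines of the protospacer (1 panel each, same y axis) in controls, SpG-ABEmax and SpG-ABE8e; symbols mark the replicate, bars the 95% Wilson interval of the reads and black lines the group mean. SpG-ABE8e stands above the other groups at position 13 (1.35% to 1.84%) and position 18 (0.402% to 0.721%), while at positions 1 and 20 the SpG-ABE8e and SpG-ABEmax samples overlap.

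Over the whole window, A5G with both editors and A13G and A18G with ABE8e were the changes that stood out. Of 120 possible substitutions, 81 were seen in at least 1 read of the 2 editor groups. All 3 ABE8e samples were above all 3 ABEmax samples at 2 of these 81 (2.47%), and these were A13G and A18G. The opposite order was found at 1 of the 81 (1.23%), G16A, with 2, 1 and 1 reads for ABEmax and 0 elsewhere among these 9 samples, which is named because it was the only one. Against the controls, ABE8e was higher without overlap at 4 of 80 substitutions (5%), which were A1G, A5G, A13G and A18G. ABEmax was higher without overlap at 3 of 80 (3.75%), which were A1G, A5G and G16A, and only A5G of them had a group mean of at least 0.1%. Changes in which the controls were higher were as many: 4 of 80 (5%) against ABE8e and 6 of 80 (7.5%) against ABEmax, each of 1 to 6 reads per control. The most frequent was T14G, also in the start codon, with 5, 6 and 3 reads in the controls and 0 to 3 in each editor sample. The number of substitutions that were higher without overlap in an editor group was thus no larger than the number that were higher in the controls.

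Their levels differed for some of them. The substitutions that were not A-to-G at a protospacer adenine numbered 115. The highest of them was 0.201% in any editor sample and 0.300% in a control. A5G with both editors and A13G and A18G with ABE8e lay above these values in every sample. The mean of A1G with ABE8e, 0.258%, lay below that control value. With ABEmax the means of A1G and G16A were 0.0882% and 0.0887%. A-to-G outside the protospacer was seen 2 times with ABE8e, 1 time with ABEmax and 8 times in the controls. T-to-C inside the protospacer, which would be adenine editing of the other strand, was seen 6, 2 and 4 times. Reads with a change at any of the 8 cytosines made up 0.326 ± 0.0724% with ABE8e, 0.285 ± 0.226% with ABEmax and 0.280 ± 0.158% in the controls (SD, n = 3), so the editors differed by 0.0411 percentage points (exact permutation p = 0.90, adjusted p = 0.90). ABE deaminases are known to act on cytosine at a low rate in some contexts, and no excess over the controls was detectable with the *Sp*G editors. This rate pools all changes of cytosine, and C-to-T had a background in the controls. There C6T, C7T, C8T and C11T were read 5, 6, 5 and 6 times, against at most 1 time each with either *Sp*G editor. In the samples labelled *Sp*Cas-ABEmax, reads with a cytosine change made up 1.07 ± 0.0988%.

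**Figure D3:**
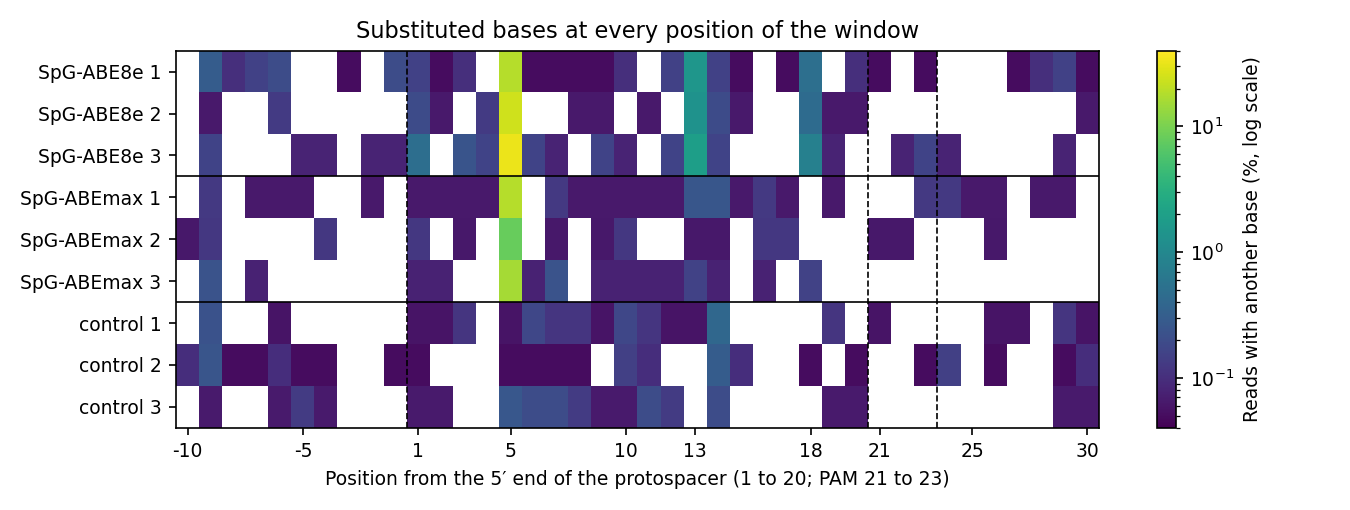
Percent of reads with a substituted base (colour, log scale; white where no read had one) at each position of the window (x axis, from 10 bases before the protospacer to 7 beyond the PAM; dashed lines bound protospacer and PAM) in the 9 samples (rows). Position 5 is bright in all 6 edited samples, while positions 13 and 18 form brighter columns in the 3 SpG-ABE8e samples than in the SpG-ABEmax and control samples.

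The alleles show how these edits fell together on single reads. The 6 *Sp*G samples held 102 distinct window sequences in 9281 reads, of which 70 were seen in 1 read only. The 12 most frequent by their mean over the 6 samples included the unedited sequence and 6 that carry A-to-G changes alone, which are shown from the most to the least frequent with the edited bases in capitals.
unedited: acttacccgtccatggcacacgg
A5G: acttGcccgtccatggcacacgg
A5G and A13G: acttGcccgtccGtggcacacgg
A18G: acttacccgtccatggcGcacgg
A13G: acttacccgtccGtggcacacgg
A1G and A5G: GcttGcccgtccatggcacacgg
A5G and A18G: acttGcccgtccatggcGcacgg

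The allele with the target edit alone made up 332, 346 and 375 reads with ABE8e and 290, 130 and 197 with ABEmax. It was the second most frequent in every edited sample, after the unedited allele, which made up 98.2 to 98.5% of reads in the controls, 65.1 to 79.8% with ABE8e and 80.2 to 90.8% with ABEmax. The allele with A5G and A13G, which has both the GC donor and the ACG codon, came next, with 23, 18 and 19 reads in the ABE8e samples. The same allele had 0, 0 and 1 reads with ABEmax and none in the controls. A18G alone had 6, 2 and 4 reads with ABE8e, A13G alone 5, 3 and 1, A1G with A5G 2, 3 and 4, and A5G with A18G 2, 5 and 3. With ABEmax these 4 alleles had at most 3 reads in any sample. The other 5 of the 12 carried 1 substitution that was not A-to-G (at positions -9, -6, 9 and, with T14G and T14A, 14), and 4 of them were also seen in controls.

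Nearly all reads edited by ABEmax carried the target edit and nothing else in the protospacer. The share of target-edited reads without another substitution there and without an indel was 99.3 ± 0.747% with ABEmax and 92.2 ± 0.378% with ABE8e (SD, n = 3), and by sample it ran from 98.5 to 100% and from 91.8 to 92.5%. The difference of -7.04 percentage points was many times the spread of either group (exact permutation p = 0.1, adjusted p = 0.16). Mean target editing was higher with ABE8e, and reads with the target edit alone in the protospacer were 23.1 ± 6.67% of all its reads, against 14.01 ± 5.43% with ABEmax. On this measure the samples overlapped (exact permutation p = 0.2). Its lowest ABE8e value was 16.9% and its highest ABEmax value 18.6%, both in replicate 1. Reads with 2 or more edited adenines were 1.80 ± 0.472% with ABE8e and 0.0518 ± 0.0898% with ABEmax (exact permutation p = 0.1, adjusted p = 0.16), and none was found in 5260 control reads.

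With ABE8e, A13G fell mostly on reads that also had the target edit. In the ABE8e samples it was carried by 23 of 366, 18 of 374 and 20 of 407 target-edited reads, that is 6.28%, 4.81% and 4.91%. Among reads without the target edit it was carried by 6 of 1624, 3 of 1180 and 3 of 839, that is 0.369%, 0.254% and 0.358%. The excess was seen in all 3 samples, with Fisher's exact test on the reads of each giving p between 1.08e-12 and 8.4e-08 (adjusted p between 2.6e-11 and 6.72e-07 over 24 tests). These tests compare reads within a sample and carry counting error only. Summed over the samples, 61 of the 73 reads with A13G (83.6%) also had A5G, while 23.9% of all reads had it.

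At the other adenines this rested on fewer reads. A1G and A18G were also more frequent among target-edited reads in all 3 ABE8e samples. Of 11 ABE8e reads with A1G, 10 had the target edit (90.9%), and the 3 samples gave Fisher's exact p between 0.0139 and 0.0338, none of which passed after adjustment (lowest adjusted p = 0.0641). Of 24 reads with A18G, 10 had the target edit (41.7%), and the Fisher's exact p ran from 0.0107 to 1 (lowest adjusted p = 0.0641). None of the 3 reads with A20G had it. With ABEmax, 1 of 4 reads with A13G and 1 of 4 with A1G had the target edit. Its replicates 1 and 2 had no read with both A13G and A5G among 296 and 130 target-edited reads, which allows shares of up to 1.01% and 2.31%, and the 95% interval of the third, with 1 of 201, reached 2.76%. The rates of 4.81 to 6.28% with ABE8e lay above all of these limits.

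**Figure D4:**
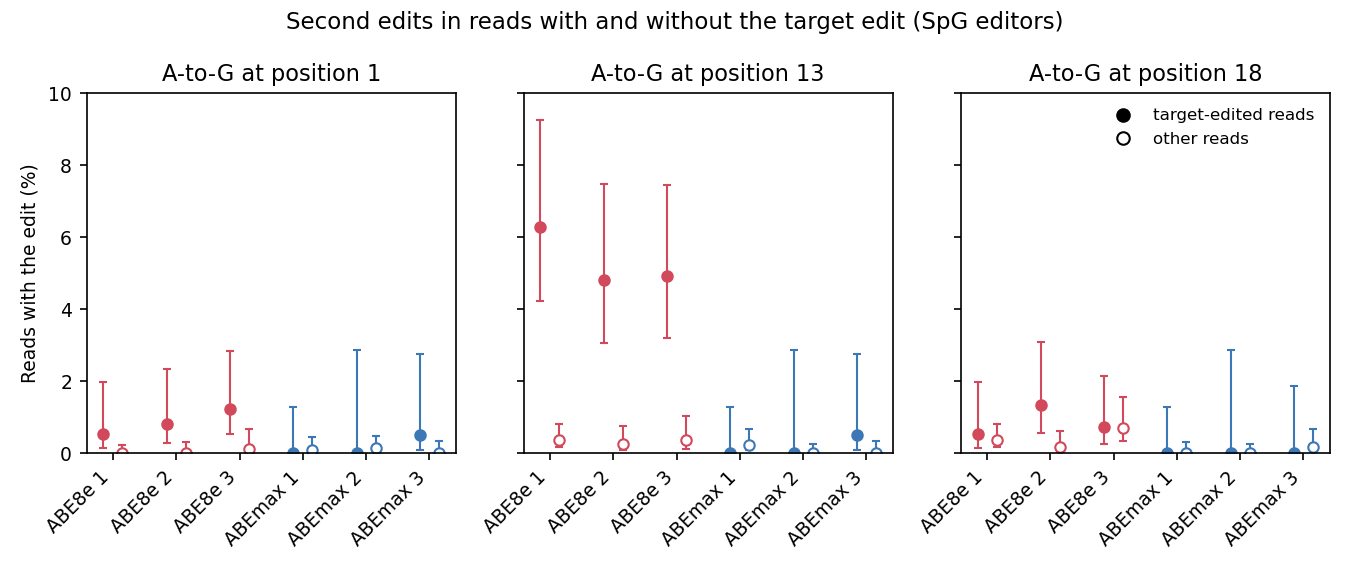
Percent of reads with A-to-G at positions 1, 13 and 18 (panels) among reads with the target edit (filled) and reads without it (open) in each SpG-ABE8e (red) and SpG-ABEmax (blue) sample; bars are 95% Wilson intervals of the reads. At position 13 the SpG-ABE8e samples lie at 4.81% to 6.28% in target-edited reads and at most at 0.369% in the others.

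The start codon was changed by any substitution in 1.76%, 1.54% and 2.24% of reads with ABE8e, in 0.507%, 0.123% and 0.311% with ABEmax and in 0.517%, 0.300% and 0.330% of the controls. Only ABE8e stood above the controls, and its difference from ABEmax was 1.53 percentage points (exact permutation p = 0.1, adjusted p = 0.16). Without an editor the changes were mostly T14G, and with ABE8e they were mostly A13G.

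Indels in the window were rare. They were found in 5, 1 and 10 reads with ABE8e (0.251%, 0.0643% and 0.801%), in 4, 3 and 3 reads with ABEmax (0.253%, 0.185% and 0.233%) and in 0, 2 and 0 control reads. The means were 0.372 ± 0.383% and 0.224 ± 0.0351% (SD, n = 3), with p = 0.80 between the editors in the exact permutation test (adjusted p = 0.853). ABEmax lay above the controls in all 3 samples (exact permutation p = 0.1, adjusted p = 0.16), and ABE8e overlapped them (exact permutation p = 0.20, adjusted p = 0.246). Without replicate 3 of each group, which for ABE8e held 10 of the 16 indel reads, the difference between the editors was -0.0615 percentage points. No allele with an indel reached 0.2% of a sample.

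Most of these indels lay away from the predicted nick. An indel within 2 bases of the nick was found in 3 of the 16 ABE8e reads and 4 of the 10 ABEmax reads. Reads with 5 or more substituted bases made up 6 and 3 of them. Without those reads, a filter chosen after the data were seen, the means were 0.232 ± 0.221% and 0.161 ± 0.0624%, against 0.0167 ± 0.0289% in the controls. All 3 samples of each editor then lay above the controls (exact permutation p = 0.1 each). For ABE8e this rests on read totals, since its replicate 2 held 1 of 1555 reads and control 2 held 1 of 2001. Only 1 read with an indel, with ABEmax, also carried the target edit, and it was among the reads of 5 or more substituted bases. Reads with a deletion over position 5 could not show that edit. By the inserted and deleted bases that the tables state for each read, which count the whole amplicon, indels were found in 0.773 ± 0.506%, 0.488 ± 0.120% and 0.372 ± 0.0964% of reads with ABE8e, ABEmax and in the controls. The reads that this adds held 1 deleted base outside the window in all 21 and 12 cases with the editors and in 17 of 18 in the controls. With that measure the ABEmax samples overlapped the controls.

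*Sp*Cas editors with the same deaminases and sgRNA edited the target more often. Its mean was 44.5 ± 3.28% for *Sp*Cas-ABE8e and 33.9 ± 4.39% for *Sp*Cas-ABEmax (SD, n = 3), which is 19.5 and 19.8 percentage points above *Sp*G with the same deaminase (exact permutation p = 0.1 each, adjusted over 2 comparisons p = 0.1). ABE8e exceeded ABEmax by 10.9 percentage points with *Sp*G and by 10.6 with *Sp*Cas, and these gains differed by 0.263 points (exact permutation of the deaminase labels within each Cas protein, 400 arrangements, p = 0.985).

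At the other adenines the mean gains of ABE8e over ABEmax were positive with *Sp*G and negative with *Sp*Cas. By their levels there, the samples labelled *Sp*Cas-ABEmax were nearer to *Sp*G-ABE8e and those labelled *Sp*Cas-ABE8e nearer to *Sp*G-ABEmax at positions 13 and 18, while at the target the samples labelled ABE8e were the higher ones with both Cas proteins. Whether the *Sp*Cas labels of this site were exchanged was not tested, and an exchange would turn the sign of every *Sp*Cas gain given here. It would also change the target differences between *Sp*Cas and *Sp*G of the same deaminase given above, and the likeness of the 2 gains at the target. With *Sp*G the more frequent A13G was that of ABE8e, 1.35 to 1.84% against 0 to 0.190%, and with *Sp*Cas it was that of ABEmax, 0.835 to 1.68% against 0.0532 to 0.110% with ABE8e. The gain of ABE8e over ABEmax at position 13 was thus 1.46 percentage points with *Sp*G and -1.27 with *Sp*Cas, a difference of 2.73 (exact permutation p = 0.005, the smallest that these arrangements can give; adjusted p = 0.0175 over 7 measures). At position 1 the gains were 0.170 and -1.56 points (difference 1.73, exact permutation p = 0.01, adjusted p = 0.0175), with the *Sp*G samples of both deaminases overlapping, and at position 18 they were 0.472 and -0.233 points (difference 0.71, exact permutation p = 0.01, adjusted p = 0.0175), with the *Sp*Cas samples overlapping. At position 20 the gains were 0.0549 and -0.0599 points (exact permutation p = 0.08, adjusted p = 0.112). This permutation is exact only if the deaminase makes no difference with either Cas protein. Its p-values thus do not by themselves test unequal gains, and they do not show opposite signs. The comparison of gains was not among the planned ones. The share of target-edited reads with no other change fell by 7.04 points with ABE8e on *Sp*G and rose by 10.5 points on *Sp*Cas, from 87.5 ± 1.66% with ABEmax to 98.0 ± 0.784% (difference of the gains -17.5 points, exact permutation p = 0.005, adjusted p = 0.0175). The 2 editors with more bystander editing also differed in where it lay. In target-edited reads, A1G was present in 5.15 ± 0.735% for *Sp*Cas-ABEmax against 0.859 ± 0.345% for *Sp*G-ABE8e, while A13G was present in 3.75 ± 1.47% against 5.34 ± 0.822% (SD, n = 3). At position 1 those samples did not overlap and at position 13 they did.

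**Figure D5:**
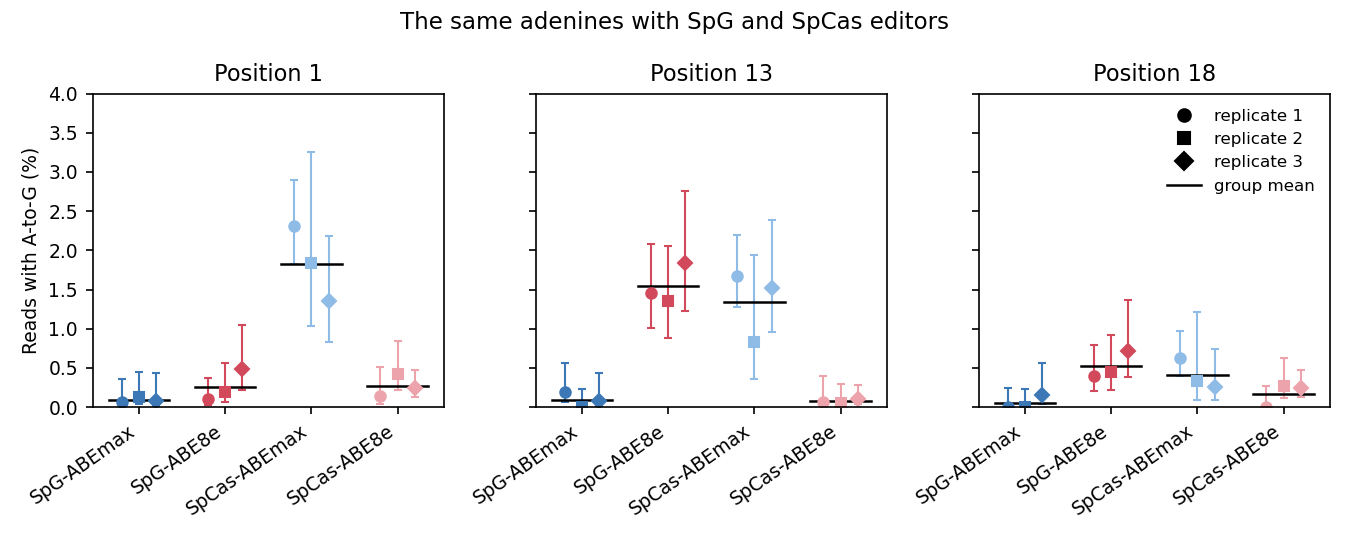
Percent of reads with A-to-G at positions 1, 13 and 18 (panels) with SpG and SpCas editors carrying ABEmax or ABE8e; symbols mark the replicate, bars the 95% Wilson interval of the reads and black lines the group mean. At position 13 the higher values belong to SpG-ABE8e and SpCas-ABEmax, with means of 1.55% and 1.34%, and the lower ones to SpG-ABEmax and SpCas-ABE8e.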

How the data were processed

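The authors amplified the site in 2 PCR steps, sequenced it on a MiSeq in paired-end mode and ran CRISPResso2 (version not given in the sources used here). Each deposited table lists aligned window sequences with the read count, the percent of reads and, among other values per read, the deposited numbers of deleted, inserted and mutated bases. The deposited percent equalled count over table total. Bases were placed by the aligned reference, rows with the same window sequence were summed, and no reads were left out, so sequencing errors and misaligned reads remain in every rate. Rates are percentages of all reads of a table. Groups were compared by exact permutation over samples (two-sided, Benjamini-Hochberg over 16 comparisons) with Python 3.11.15, numpy 2.4.6 and scipy 1.17.1. The study calls the samples of a group independent experiments, so same-numbered samples were not paired. Their deviations were not correlated (Pearson r from -0.179 to 0.145 over 94 substitutions in 9 pairs). Most of these substitutions had only a few reads per sample, so this cannot decide whether a pairing exists. Replicates of an editor differed in target editing beyond counting error (Fisher's exact p at most 0.0291). The 5 adenines, substitutions more than 0.2 percentage points above the highest control, the 12 most frequent alleles and indel alleles of at least 0.2% of reads were to be named. Members and rules were chosen with earlier results of these data known. Coordinates come from a match to GRCm39 with GENCODE annotation, since no build is named for these tables. The reading of the tables was tested on 20 simulated tables, with 100 of 100 counts recovered. Some of these tables were made without any change, so their counts of 0 test little. The others were made with the same numbering of positions as the reading, so an error in that numbering could not show.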

Additional observations from a re-analysis of the deposited data

Results flagged for a closer look

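For 4 measures the means of ABE8e and ABEmax differed by unlike amounts on *Sp*G and *Sp*Cas. Exact permutation of the deaminase labels within each Cas protein gave adjusted p = 0.0175 for each. That permutation is exact only if the deaminase makes no difference with either Cas protein, so it does not by itself test unequal gains. The gain of ABE8e on *Sp*G exceeded that on *Sp*Cas by 1.73 percentage points for A1G, by 2.73 for A13G and by 0.71 for A18G, and was lower by a value of -17.5 points for the share of target-edited reads with no other change in the protospacer. The test does not show opposite signs: at position 1 the *Sp*G samples of both deaminases overlapped, and at position 18 the *Sp*Cas samples did. All 4 values rest on the labels of the *Sp*Cas samples, and whether these were exchanged was not tested.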

How the results depend on the processing

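Of 151 alternative values for 21 results, 146 kept their direction and their side of the threshold, though no test of 3 samples against 3 could pass 0.05. Some of the 151 could not change direction, since subtracting the controls or blocking by replicate number leaves a difference of means as it was. The indel difference between the editors, 0.148 percentage points, became -0.0186 when only indels near the nick were counted, and with 1 replicate number left out it lay between -0.0615 and 0.283. The difference in cytosine changes, 0.0411 points, became -0.0245 without indel reads and lay between -0.0758 and 0.174 with 1 replicate number left out. The A1G difference between the editors lay between 0.0533 and 0.236 points, and the indel difference of *Sp*G-ABE8e from the controls between 0.108 and 0.526, with 1 replicate number left out. Of the 3 substitutions with *Sp*G-ABEmax above the controls, 1 had a group mean of at least 0.1%. Leaving out reads of 5 or more substituted bases was chosen after the data were seen, and left the indel difference at 0.0712. In the paired analysis, with replicate number as a block, the differences are the same by construction (10.9 points for target editing, 1.46 for A13G). The exact sign-flip p was 0.25 or more for all 18. With 3 pairs that test cannot give a p below 0.25, so it cannot show whether pairing matters. Taking only alleles of at least 0.2% left nothing to compare for A20G, *Sp*G-ABEmax bystander editing, indels and cytosine changes. Depth limits all rates near 1 or 2 reads per sample, or about 0.1%.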
